A study of Mus musculus with 20 samples.

Results

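The transcripts described here are 40 genes that mark the main neighbours of mesenchymal cells in the liver: 16 hepatocyte genes, 10 endothelial genes and 14 genes of Kupffer cells. They were chosen by symbol as a list of markers, and all 40 were found among the 24848 genes of each deposited table. RNA sequencing had been run on 20 libraries from the liver of C57BL/6 mice, 4 in each of 5 groups, as total RNA made into stranded mRNA libraries. The study compared a pair of cell lineages. Portal mesenchymal stem cells (PMSC) belong to the stroma of the portal tracts, and hepatic stellate cells (HSC) are sinusoidal pericytes that store vitamin A. Each was sequenced uncultured ("fresh" below) and again after it had turned into myofibroblasts in culture: PMSC-MF-3d after 3 days, PMSC-MF-7d after 7 days and HSC-MF-7d after 7 days by the sample titles. The series description gives 3 days for the cultured stellate cells, so the time of that group is uncertain. No genetic change or treatment other than culture is given for any group. The isolation and any sorting of the fresh cells are not stated in the labels used here. Nothing in the labels ties the 4 libraries of a group to different animals or cultures. The p-values therefore reflect only how much these libraries differ from each other, which may be technical.

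Hepatocytes fill most of the liver and secrete the bulk of the plasma proteins, among them albumin, apolipoproteins, fibrinogen and, in the acute-phase response, serum amyloid A. The sinusoids are lined by fenestrated endothelial cells that clear waste through scavenger and Fc receptors. Kupffer cells are the resident macrophages that sit inside the sinusoids, and stellate cells lie just behind the endothelium. A preparation of any liver cell can therefore carry RNA of these neighbours. The question addressed is how much of it each library held, how that varied and what was left after culture.

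Summed expected counts per library ran from 11810536 in the shallowest PMSC library to 26675583 in the deepest PMSC-MF-7d library. The group labels were compared with 2 lists of 12 genes. The lists were chosen with earlier results of these data known, so this is not an independent check. Over all tested genes, 33.6% were called lower and 40.1% higher in HSC than in PMSC. All 12 portal mesenchyme genes, among them Cd34, Gli1, Thy1 and Eln, were lower in HSC. Of 12 stellate cell genes, 9 (Lrat, Reln and Hgf among them) were higher in HSC, Cygb and Pdgfrb were lower, and Des was not called, with a log2 fold change of 0.41 ± 0.18 (± SE here and for every fold change; adjusted p = 0.052, edgeR). Libraries within a group did not carry equal amounts of the 3 marker panels. HSC 1 and HSC 2 stood apart in hepatocyte genes, HSC 1 in Kupffer cell genes, PMSC 2 in hepatocyte genes and PMSC 1 in endothelial genes. Fold changes of several genes that rest on them are given with and without them. Medians over a panel and percentages left after culture include all libraries.

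The 40 transcripts made up 4.91% and 5.36% of all TPM (transcripts counted per length and scaled to the same total in every library) in HSC 1 and HSC 2, and 2.12% and 2.22% in HSC 3 and HSC 4. They made up 0.129% to 0.227% in the PMSC libraries. After culture the share was 0.0225% to 0.0257% in HSC-MF-7d and 0.003% to 0.00557% over the 8 PMSC myofibroblast libraries. In bulk RNA, fewer cells of a type and less of its RNA per cell cannot be told apart, so these shares are not numbers of cells. The 3 panels all summed to more TPM in every HSC library than in any PMSC library. No order of the panels separated the groups: Kupffer genes summed to more than endothelial genes in PMSC 4 and in HSC 1, 2 and 3, and to less in the other four fresh libraries. In PMSC, hepatocyte genes were 12.8 to 47.8 times the endothelial sum, whereas in HSC they were 1 to 7.17 times that sum. The PMSC ratio rested on few genes. Without Cyp2e1, Trf and Ahsg, hepatocyte genes summed to 65.0 to 345 TPM in PMSC, against 41.5 to 128 TPM of endothelial genes. In HSC they then summed to 5492 to 34688 TPM, against 5528 to 7416 TPM of endothelial genes.

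**Figure D1:**
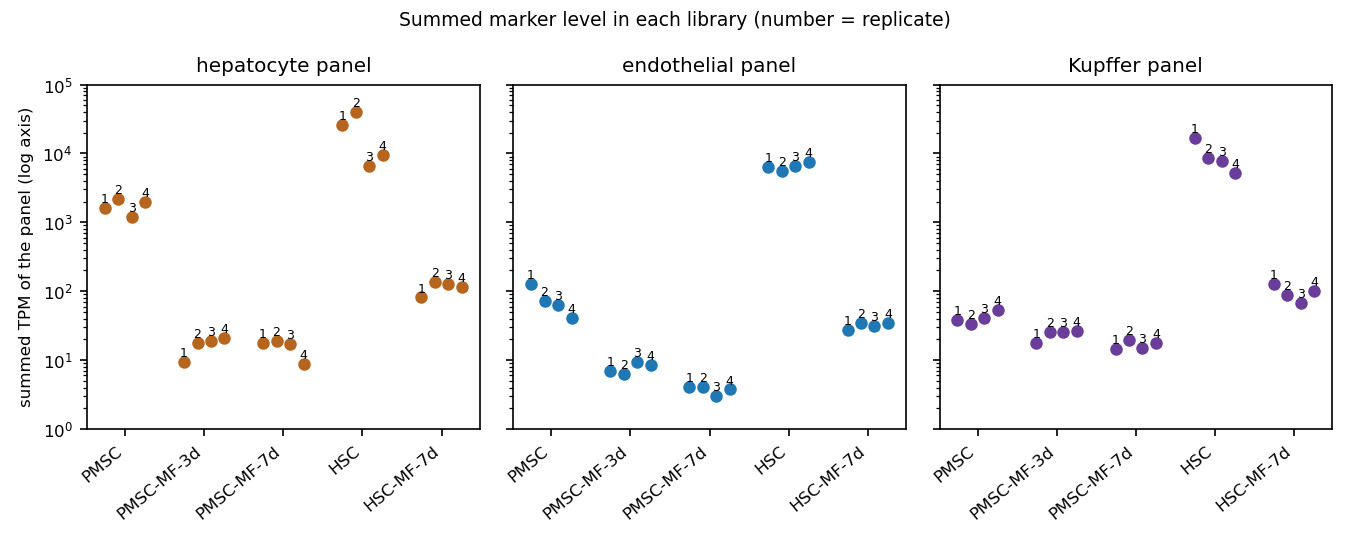
Summed TPM of the hepatocyte, endothelial and Kupffer panels (log axis) in each of the 20 libraries by group, with the replicate number beside each point. The HSC libraries lie above all others in the 3 panels, with 5528 to 7416 TPM of endothelial genes against 6650 to 39617 TPM of hepatocyte genes.

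Hepatocyte genes varied most among the fresh stellate cell libraries. Their sum was 25670, 39617, 6650 and 9597 TPM in HSC 1 to 4, a 5.96-fold range and a coefficient of variation of 75.1%. Alb, which encodes albumin (chr5:90460897-90476602, + strand, GRCm38, the assembly also called mm10), stood at 11887, 10493, 3033 and 4074 TPM. HSC 1 and HSC 2 were thus high and HSC 3 and HSC 4 low. HSC 2 was the highest library for 14 of the 16 genes and HSC 1 for the other two, while HSC 3 was the lowest for 14. Many of these genes kept near-constant proportions to one another. Ttr, the thyroxine carrier transthyretin, was 0.0805 to 0.107 of the Alb level in the 4 libraries, and Ahsg, the plasma glycoprotein fetuin-A, was 0.0703 to 0.114 of it. Apoa1, the main protein of high-density lipoprotein, stood at 2016, 2193, 551 and 903 TPM, and its partner Apoa2 at 2337, 2469, 645 and 1325 TPM. These were 0.17 to 0.222 and 0.197 to 0.325 of the Alb level.

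The fibrinogen chains, the heme carrier Hpx and Apob did not keep that proportion. Fgb, the beta chain, stood at 907, 2128, 175 and 266 TPM in HSC 1 to 4, and its ratio to Alb was 0.203 in HSC 2 against 0.0578 to 0.0763 in the other three. Within fibrinogen the chains moved as a set: Fga was 0.595 to 0.677 of Fgb, and Fgg was 0.704 to 0.803 of it. Hpx, at 1146, 3045, 221 and 244 TPM, was 0.29 of the Alb level in HSC 2 and 0.0599 to 0.0964 in the others. Apob was 0.0216 of the Alb level in HSC 2 and 0.00974 to 0.0105 in the others. The promoters of Alb and Fgb are shown because these genes share the rise in HSC 1 and HSC 2 but not its size. Both are RefSeq windows of GRCm38.p6, from 250 bases before to 50 bases after the RefSeq start of the gene. They lie at chr5:90460620-90460919 (+ strand) and chr3:83049814-83050113 (- strand). Gene positions given here are from GENCODE M21, whose start can differ from the RefSeq start, as for Alb and Saa2. Distances of matches are from the RefSeq start. Capitals mark the 6 letters GTTAAT or their reverse complement, the core of the site bound by HNF1, a hepatocyte transcription factor.
Alb: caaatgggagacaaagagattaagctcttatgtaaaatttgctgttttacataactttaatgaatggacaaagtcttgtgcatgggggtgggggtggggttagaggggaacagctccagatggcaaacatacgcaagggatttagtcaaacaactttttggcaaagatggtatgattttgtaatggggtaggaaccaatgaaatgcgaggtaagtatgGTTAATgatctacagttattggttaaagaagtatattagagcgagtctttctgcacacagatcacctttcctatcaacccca
Fgb: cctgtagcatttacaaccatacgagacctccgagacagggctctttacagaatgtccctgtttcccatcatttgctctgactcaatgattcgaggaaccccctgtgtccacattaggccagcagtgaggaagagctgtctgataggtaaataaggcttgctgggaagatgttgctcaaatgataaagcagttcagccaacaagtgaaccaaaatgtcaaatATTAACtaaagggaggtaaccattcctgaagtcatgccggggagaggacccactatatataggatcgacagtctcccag
The match began 32 bases before the start in Alb and 29 bases before it in Fgb, on opposite strands. Of the 40 genes, 31 had a promoter in the table, searched on both strands for 3 motifs. The GTTAAT letters were present in 4 of 13 hepatocyte promoters (Alb, Fga, Fgb and Serpina1b), 0 of 7 endothelial promoters, and 1 of 11 Kupffer promoters, that of Cd5l. They were present for 8.2% of the 27025 genes in the table. A match describes the letters only.

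Serum amyloid A transcripts had the widest range of all 40. Saa1 and Saa2 encode acute-phase apolipoproteins that hepatocytes release in inflammation. Saa1 (chr7:46740497-46742980, - strand) stood at 306, 4495, 75.8 and 5.91 TPM in HSC 1 to 4, a 761-fold range, and Saa2 (chr7:46751790-46754313, + strand) at 240, 4651, 61.3 and 6.28 TPM. HSC 2 thus carried nearly all of the signal, and HSC 4 almost none. The ratio of Saa1 to Alb was 0.428 in HSC 2, 0.0258 in HSC 1, 0.025 in HSC 3 and 0.00145 in HSC 4. The pair moved as one, with Saa1 at 0.941 to 1.28 of the Saa2 level. They are near copies: the GENCODE transcripts Saa1-201 and Saa2-201 were identical at 572 of 609 aligned positions (93.9%), so the division of their reads is uncertain. Their promoters, at chr7:46742931-46743230 (- strand) and chr7:46751583-46751882 (+ strand), are shown because the genes moved together in all 4 libraries. Capitals mark TTNNGNAA on either strand, a pattern bound by C/EBP factors.
Saa1: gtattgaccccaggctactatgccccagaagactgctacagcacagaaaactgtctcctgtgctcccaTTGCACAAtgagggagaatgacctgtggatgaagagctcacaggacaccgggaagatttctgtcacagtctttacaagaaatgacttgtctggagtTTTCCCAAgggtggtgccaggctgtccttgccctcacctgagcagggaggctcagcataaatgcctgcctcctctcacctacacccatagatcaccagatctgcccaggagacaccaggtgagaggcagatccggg
Saa2: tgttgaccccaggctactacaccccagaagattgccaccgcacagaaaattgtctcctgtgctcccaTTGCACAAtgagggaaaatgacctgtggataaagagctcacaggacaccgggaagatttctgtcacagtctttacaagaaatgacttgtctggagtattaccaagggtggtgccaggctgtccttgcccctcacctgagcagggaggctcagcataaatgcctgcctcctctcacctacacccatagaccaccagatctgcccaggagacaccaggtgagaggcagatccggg
The promoters were identical at 287 of 301 aligned positions (95.3%). The pattern was found at 2 places in Saa1, 182 and 86 bases before the start, and at 1 place in Saa2, 183 bases before it. It is common: it was present for 44.1% of all genes in the table, 10 of 13 hepatocyte genes, 2 of 7 endothelial genes and 8 of 11 Kupffer genes.

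The endothelial panel varied least among the fresh stellate cell libraries. Its sum was 6421, 5528, 6647 and 7416 TPM in HSC 1 to 4, a 1.34-fold range and a coefficient of variation of 11.9%. Clec4g, the lectin LSECtin of sinusoidal endothelium (chr8:3707064-3720651, - strand), was the most abundant member at 2352, 2076, 2259 and 2709 TPM. Fcgr2b, the inhibitory Fc receptor that clears immune complexes in the sinusoid, followed at 1480, 1258, 1689 and 1810 TPM. The scavenger receptor Stab2 stood at 380, 324, 429 and 420 TPM, and its relative Stab1 at 288, 253, 272 and 344 TPM. Kdr, the main receptor for vascular endothelial growth factor, stood at 520, 495, 660 and 607 TPM, Egfl7, a secreted vascular protein, at 358, 298, 359 and 495 TPM, and Cdh5, the junction protein VE-cadherin, at 401, 280, 374 and 358 TPM. No library was far from the rest, although HSC 2 was the lowest for 9 of the 10 genes. The widest range within the panel was 1.66-fold and the narrowest 1.22-fold. Proportions were also steady: Pecam1 and Tek, an adhesion molecule and the angiopoietin receptor Tie2, were 0.642 to 0.772 and 0.368 to 0.399 of the Stab2 level.

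Kupffer cell genes had a pattern of their own. Their sum was 16997, 8502, 7858 and 5186 TPM in HSC 1 to 4, a 3.28-fold range. HSC 1 was the highest library for 14 of 14 genes and HSC 4 the lowest for 13. Clec4f, a lectin restricted to Kupffer cells in mice (chr6:83644542-83656187, - strand), stood at 2312, 1053, 1092 and 676 TPM. Cd5l, a secreted scavenger protein of tissue macrophages, stood at 2718, 1404, 1371 and 712 TPM. For both genes HSC 2 and HSC 3 were close, with HSC 1 above them and HSC 4 below. Hepatocyte and Kupffer sums therefore did not rise together: HSC 2 held 4.66 times as much hepatocyte as Kupffer transcript, and HSC 3 held 0.846 times as much.

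Most Kupffer cell genes kept their place within the panel. Clec4f was 12.4% to 13.9% of the panel's TPM in the 4 HSC libraries, the phosphatidylserine receptor Timd4 was 1.1% to 1.31%, and Csf1r, the receptor for the macrophage growth factor CSF1, was 4.1% to 4.75%. C1qb, a chain of the complement initiator C1q, stood at 1881, 890, 898 and 515 TPM, C1qa at 1575, 785, 746 and 469 TPM and C1qc at 1662, 814, 814 and 524 TPM. The 3 chains thus kept near-fixed ratios, with C1qa 0.831 to 0.91 and C1qc 0.884 to 1.02 of C1qb. Marco, a scavenger receptor, departed from this at 507, 321, 152 and 71.0 TPM, which is 0.219, 0.305, 0.139 and 0.105 of the Clec4f level. Lyz2, the lysozyme of macrophages and other myeloid cells, stood at 2020, 1047, 733 and 776 TPM and was 0.816 to 1.51 of the C1qb level. The promoters of Lyz2 and C1qc are shown because Lyz2 later parts from C1q in culture. They lie at chr10:117282223-117282522 and chr4:136892865-136893164, both on the - strand, and capitals mark AGGAAGT on either strand, a site of ETS factors such as the macrophage factor PU.1.
Lyz2: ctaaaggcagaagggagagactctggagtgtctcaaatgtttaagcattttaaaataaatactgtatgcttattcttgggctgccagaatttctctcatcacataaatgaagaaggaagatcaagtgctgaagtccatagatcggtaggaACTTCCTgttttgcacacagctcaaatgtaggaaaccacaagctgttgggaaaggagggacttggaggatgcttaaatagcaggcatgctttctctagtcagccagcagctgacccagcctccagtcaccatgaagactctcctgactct
C1qc: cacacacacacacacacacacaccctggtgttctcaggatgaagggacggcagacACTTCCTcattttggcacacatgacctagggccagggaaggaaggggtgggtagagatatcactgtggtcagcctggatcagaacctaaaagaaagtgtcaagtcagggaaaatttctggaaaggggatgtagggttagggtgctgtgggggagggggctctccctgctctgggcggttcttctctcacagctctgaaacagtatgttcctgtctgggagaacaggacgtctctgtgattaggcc
The letters AGGAAGT lay 100 bases before the start in Lyz2 and 195 bases before it in C1qc, both on the strand opposite to the gene. They were present in 4 of 11 Kupffer promoters (Lyz2, C1qb, C1qc and Fcgr4), 1 of 7 endothelial promoters (Egfl7) and 0 of 13 hepatocyte promoters, against 10.7% of all genes. No 2 different motifs overlapped in the 6 promoters shown.

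**Figure D2:**
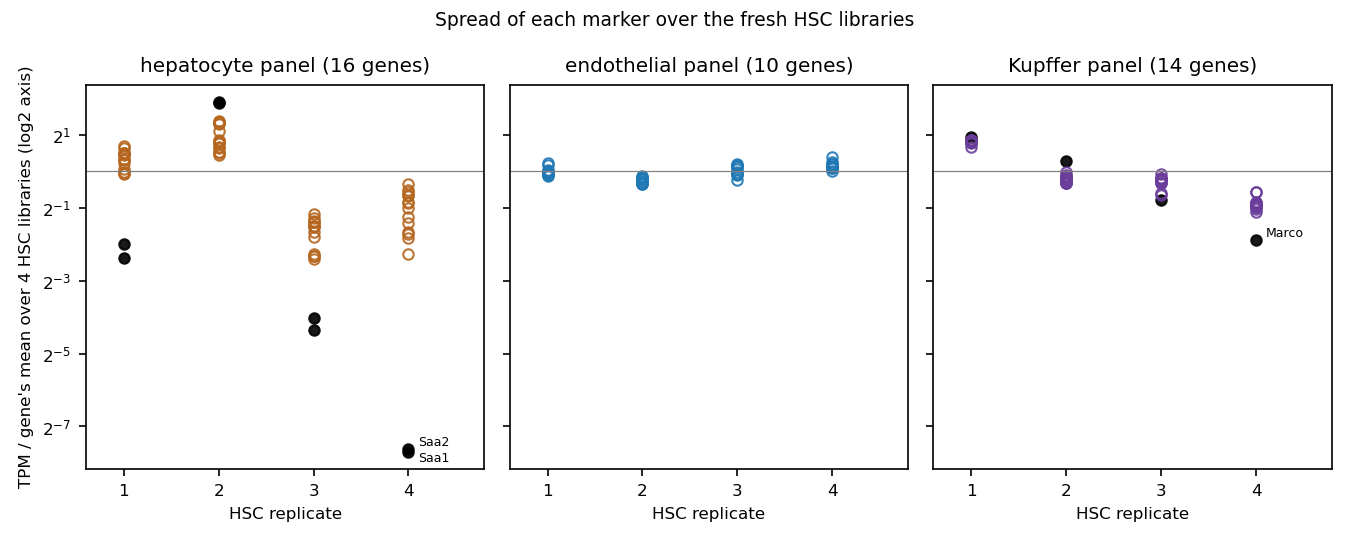
TPM of each gene in the 4 fresh HSC libraries, divided by that gene's mean over them (log2 axis), with Saa1, Saa2 and Marco filled black. Endothelial genes lie within a 1.66-fold range, Kupffer genes are all highest in HSC 1, and Saa1 and Saa2 spread most.

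In fresh PMSC the hepatocyte panel was led by Cyp2e1 and Trf, and in HSC by Alb. Cyp2e1, the ethanol-inducible cytochrome P450 (chr7:140763739-140774987, + strand), stood at 900, 891, 614 and 1143 TPM in PMSC 1 to 4. In HSC 1 to 4 it stood at 282, 388, 80.4 and 159 TPM, so the groups did not overlap and PMSC were higher. Its log2 fold change in HSC against PMSC was -2.31 ± 0.37 (adjusted p = 1.3e-05, edgeR's quasi-likelihood test). Without HSC 1 and HSC 2 it was -3.31 (adjusted p = 7.4e-07). Cyp2e1 was the only 1 of the 40 genes called lower in HSC.

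Trf, the iron carrier transferrin (chr9:103204001-103230444, - strand), stood at 550, 823, 440 and 686 TPM in PMSC 1 to 4 and 2466, 3349, 864 and 1096 TPM in HSC 1 to 4. HSC were higher, with a log2 fold change of 1.29 ± 0.37 (adjusted p = 0.0037, edgeR). That call rested on HSC 1 and HSC 2: without both it was 0.23 (adjusted p = 0.54), while without either alone it held, at 1.15 and 0.87. Ahsg stood at 77.3, 104, 68.7 and 77.1 TPM in PMSC and 936, 1192, 213 and 336 TPM in HSC. The PMSC libraries lay close together and below the lowest HSC library, and the log2 fold change was 2.69 ± 0.41 (adjusted p = 6.7e-06, edgeR), or 1.33 without HSC 1 and HSC 2 (adjusted p = 1.5e-04). Cyp2e1 and Trf made up 41.2% to 57.5% and 33.7% to 38.0% of the PMSC hepatocyte panel, and Alb 1.81% to 5.43%. In HSC, Alb made up 26.5% to 46.3% and Cyp2e1 0.98% to 1.65%.

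The remaining 13 hepatocyte genes were low in PMSC, with a sum of 65.0 to 345 TPM. Alb stood at 51.7, 117, 27.7 and 35.9 TPM in PMSC 1 to 4, and the log2 fold change in HSC against PMSC was 6.62 ± 0.65 (adjusted p = 2.0e-08, edgeR). PMSC 2 was the highest library for 15 of the 16 hepatocyte genes, all but Cyp2e1. The excess was uneven: PMSC 2 held 79.3 TPM of Apoa2 against 1.71 to 12.3 TPM in the other three, and 20.1 TPM of Fgb against 1.58 to 6.07. Without PMSC 2 the log2 fold change of Apoa2 was 7.37 instead of 5.71 ± 0.65, that of Apob, the protein of very-low-density lipoprotein, 7.93 instead of 6.39 ± 0.79, and that of Fgb 7.47 instead of 6.44 ± 0.83. Without HSC 2, Apob was at 5.67 and Fgb at 5.47, and without HSC 1 and HSC 2 Alb was at 5.50, Apoa2 at 4.85, Apob at 4.73 and Fgb at 4.39. All 4 were called each time. Saa1 stood at 0.82 to 5.04 TPM in PMSC, just under the lowest HSC library at 5.91 TPM, and its log2 fold change of 8.51 ± 1.91 (adjusted p = 0.0017, edgeR) was 5.27 without HSC 2 (adjusted p = 9.8e-04) and 3.54 without HSC 1 and HSC 2 (adjusted p = 0.0039). Saa2 overlapped between the groups, at 0 to 7.2 TPM in PMSC. Its log2 fold change was 8.81 ± 2.40 (adjusted p = 0.0095, edgeR), 5.23 without HSC 2 (adjusted p = 0.015), 11.14 without PMSC 2 (adjusted p = 0.029) and not called without HSC 1 and HSC 2 (adjusted p = 0.064). Saa1 and Saa2 passed the filter on low counts only through the HSC libraries, so their direction was fixed by the filter.

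Endothelial transcripts in PMSC were at 0.422% to 11.9% of their HSC mean and differed in makeup. The panel's sum was 128, 73.1, 63.4 and 41.5 TPM in PMSC 1 to 4, and PMSC 1 was the highest library for 9 of 10 genes. The exception was Tek, at 14.4, 15.4, 33.6 and 8.63 TPM, highest in PMSC 3. Tek made up 11.2% to 53.0% of the PMSC panel against 2.18% to 2.57% of the HSC panel, and its ratio to Stab2 was 3.63 to 13.7 in PMSC. Pecam1 stood at 19.5, 9.04, 4.87 and 3.38 TPM, which is 1.42 to 6.41 of the Stab2 level. The log2 fold change in HSC against PMSC was 2.67 ± 0.28 for Tek (adjusted p = 5.0e-08, edgeR), 4.51 ± 0.38 for Pecam1 (adjusted p = 2.7e-09) and 6.77 ± 0.22 for Stab2 (adjusted p = 5.5e-15). Leaving out PMSC 1 took Pecam1 to 5.21 and Cdh5 from 5.67 ± 0.50 to 6.50. It took the lectin Clec4g from 7.08 ± 0.49 to 7.84, and Kdr from 7.45 ± 0.50 to 8.13.

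Kupffer cell transcripts were nearly absent from PMSC except for Lyz2. Vsig4, Marco, Cd163, Fcgr4 and Wfdc17 had no counts in the 4 PMSC libraries. In HSC 1 to 4, Vsig4 stood at 1043, 498, 463 and 294 TPM, Cd163 at 349, 192, 130 and 106 TPM, and Wfdc17 at 1326, 771, 669 and 563 TPM. Against a floor of 3 counts over those libraries, HSC were at least 6379-fold higher in Vsig4, a complement receptor, and at least 7419-fold higher in Cd163, the scavenger receptor for haemoglobin. They were at least 4128-fold higher in Marco, 1979-fold in Wfdc17 and 1261-fold in the Fc receptor gene Fcgr4, which stood at 228, 107, 128 and 69.8 TPM in HSC. Fcgr4 belongs to a family of similar genes, so its reads may be shared with its relatives. Timd4 had 1 count in PMSC and 7219 in HSC, a ratio of 6229 with a 95% counting interval from 1118 to 246024. Lyz2 stood at 31.6, 29.6, 37.2 and 47.8 TPM in PMSC 1 to 4, which was 83.6% to 92.1% of the panel there. It was 4.62 ± 0.34 higher in HSC on the log2 scale (adjusted p = 2.9e-10, edgeR), and 3.96 higher without HSC 1 and HSC 2. C1qb stood at 0.48 to 2.10 TPM in PMSC, so that Lyz2 was 14.1 to 99.5 times its level.

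In HSC against PMSC, 39 of the 40 genes were called higher and 1 lower at an adjusted p under 0.05, against 40.1% and 33.6% of the 14751 tested genes. Among hepatocyte genes 15 of 16 were higher, with a median log2 fold change of 6.42, and among endothelial genes 10 of 10, with a median of 5.90. Over all tested genes the median was 0.10. All 14 Kupffer genes were called higher, and their PMSC level had a median of 0.011% of the HSC level. Without HSC 1 and HSC 2 the counts were 37 higher and 1 lower, the 2 lost being Trf and Saa2. Of the 40 genes, 11 passed the filter on low counts only through the HSC libraries and had to differ if tested. They were the hepatocyte genes Saa1, Saa2 and Cps1 and 8 Kupffer genes.

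**Figure D3:**
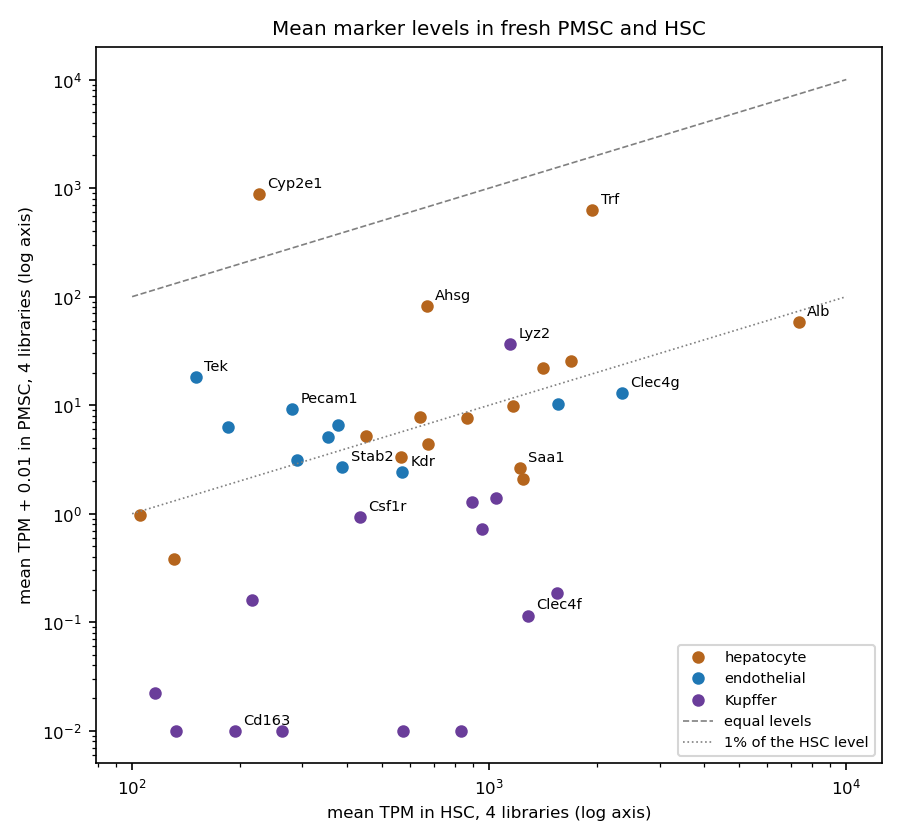
Mean TPM of the 40 genes in the 4 PMSC libraries, with 0.01 added, against the mean in the 4 HSC libraries (log axes), coloured by panel, with lines for equal levels and for 1% of the HSC level. Cyp2e1 lies above the line of equal levels, Trf below it, and 26 of the 40 genes lie under 1% of their HSC level.

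Nearly all of these transcripts were gone from stellate cells after culture. All 40 were called lower in HSC-MF-7d than in HSC, against 38.5% of all tested genes. For the 11 that passed the filter on low counts only through the HSC libraries that direction was fixed by the filter, and the other 29 were called lower too. Of the 40, 34 were left at under 1% of their fresh mean TPM. Alb stood at 0.52, 0.13, 0.52 and 0.80 TPM, 0.00668% of the fresh mean, and its log2 fold change was -14.00 ± 0.92 (adjusted p = 4.9e-11, edgeR), or -12.85 without HSC 1 and HSC 2. Fgg, Serpina1b, Saa1, Saa2 and Timd4 had no counts in the 4 cultured libraries. Against the floor of 3 counts they were at least 11851-fold, 6251-fold, 5797-fold, 5866-fold and 2602-fold lower. HSC 2 held most of the fresh counts of Fgg, Saa1 and Saa2, and without it these bounds were 5610-fold, 603-fold and 476-fold. As a panel, hepatocyte genes were left at 0.565% of the fresh sum, endothelial genes at 0.491% and Kupffer genes at 0.996%. These fresh sums include HSC 1 and HSC 2. Median log2 fold changes were -7.87 for the 10 endothelial genes and -0.03 over all tested genes. The 40 calls held without HSC 1 and HSC 2, but those of Saa1 and Saa2 were lost when HSC-MF-7d and HSC were fitted alone (adjusted p = 0.057 and 0.061, edgeR).

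What was left came from a few genes. Trf stood at 73.1, 128, 120 and 109 TPM in HSC-MF-7d, 5.53% of the fresh mean, and without it the other 15 hepatocyte genes summed to 6.66 to 8.48 TPM. Lyz2 stood at 90.9, 69.9, 52.8 and 76.7 TPM, 6.34% of the fresh mean, at 20 to 25.2 times the C1qb level. In fresh HSC that ratio had been 0.816 to 1.51. Egfl7 stood at 15.46, 18.7, 16.4 and 18.4 TPM, 4.57% of the fresh mean, of a panel sum of 27 to 34.8 TPM, in which the other 9 genes summed to 11.6 to 16.4 TPM. Lyve1, the hyaluronan receptor of sinusoidal and lymphatic endothelium, was left at 2.48, 3.16, 3.83 and 3.93 TPM, or 1.8%, Csf1r at 1.25% and Tek at 1.03%. Defining Kupffer markers were at traces, with Clec4f at 2.27, 0.16, 0.44 and 0.68 TPM and Adgre1, the F4/80 antigen, at 1.30, 0.72, 0.53 and 0.21 TPM. HSC-MF-7d 1 was the highest library for 12 of the 13 Kupffer genes detected in this group.

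**Figure D4:**
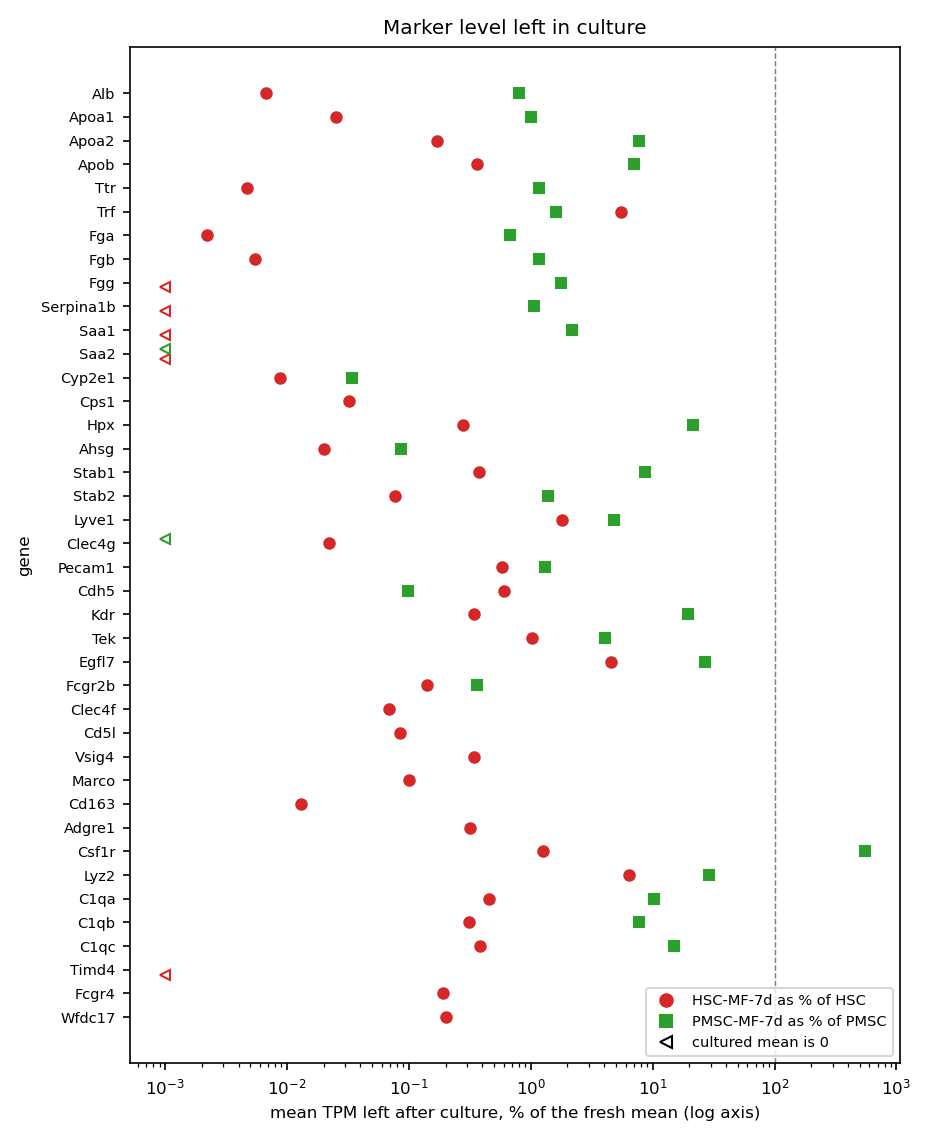
Mean TPM left after culture as a percentage of the fresh mean (log axis) for each gene, in HSC-MF-7d and, for the 30 genes with a PMSC mean of at least 0.5 TPM, in PMSC-MF-7d. Open triangles at the left edge mark cultured means of 0. Trf and Lyz2 are the highest in HSC-MF-7d at 5.53% and 6.34%, and Csf1r lies above 100% in PMSC-MF-7d.

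Cyp2e1, Trf and Ahsg were low in portal cells after culture. Cyp2e1 stood at 0 to 0.27 TPM in PMSC-MF-3d and 0 to 0.62 TPM in PMSC-MF-7d, where PMSC had held 614 TPM or more. Its log2 fold change in PMSC-MF-3d against PMSC was -13.00 ± 0.67 (adjusted p = 9.0e-13, edgeR). Ahsg fell to 0 to 0.37 TPM, with a log2 fold change of -9.63 ± 0.73 (adjusted p = 2.7e-10), or -10.98 without PMSC-MF-3d 4, and was at 0 to 0.15 TPM in PMSC-MF-7d. Trf fell to 6.83, 16.1, 14.6 and 16.9 TPM, with a log2 fold change of -5.90 ± 0.45 (adjusted p = 3.2e-10), and stood at 13.3, 9.61, 11.2 and 5.89 TPM in PMSC-MF-7d. The log2 fold change of Trf between 3 and 7 days was -0.55 ± 0.39 (adjusted p = 0.29).

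Across the 40 genes, 29 were called lower and 1 higher in PMSC-MF-3d than in PMSC, against 41.1% and 37.2% of all tested genes. The hepatocyte panel had 14 of 16 lower, all but Saa1 and Saa2, and the endothelial panel 10 of 10, with a median log2 fold change of -5.32 against -0.07 over all tested genes. The Kupffer panel had 5 of 14 lower: Lyz2, Adgre1 and the 3 C1q chains. Of the 14, 8 passed the filter only through the HSC libraries and were at or near 0 in PMSC, which left them no room to fall. Among the 6 that passed without those libraries, 5 were lower and 1 higher. Lyz2 had 1072 counts over the 4 PMSC libraries, but Adgre1 had 17 and C1qc 21, and neither of those 2 calls was stable. Without PMSC 1 the adjusted p was 0.22 for Adgre1 and 0.23 for C1qc, and it was over 0.05 without any 1 of the PMSC-MF-3d libraries for Adgre1, from 0.066 to 0.084, and without PMSC-MF-3d 2, 3 or 4 for C1qc, from 0.057 to 0.075. In PMSC-MF-7d against PMSC, a comparison with the same fresh libraries, 29 were again lower and 1 higher, against 39.0% and 38.1% of all tested genes. There too the call of Adgre1 was lost without PMSC 1 (adjusted p = 0.22) or any 1 of the PMSC-MF-7d libraries (from 0.059 to 0.082). That of C1qc was lost without PMSC 1 (adjusted p = 0.28), PMSC 3 (0.057) or PMSC-MF-7d 1, 3 or 4 (from 0.077 to 0.098), and that of C1qa without PMSC 4 (adjusted p = 0.058). Among the endothelial genes Egfl7 kept the largest share, 57.7% of its PMSC mean TPM at 3 days, a mean raised by PMSC 1. At 11.3, 5.75, 4.23 and 4.84 TPM in PMSC and 3.68, 2.89, 4.93 and 3.56 TPM in PMSC-MF-3d, it overlapped between the groups. Its log2 fold change, on scaled counts and not TPM, was -1.33 ± 0.31 (adjusted p = 7.3e-04, edgeR).

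Csf1r was the gene called higher in both comparisons. It stood at 0.81, 1.64, 0.05 and 1.19 TPM in PMSC 1 to 4, at 16.8, 22.0, 21.9 and 23.7 TPM in PMSC-MF-3d and at 4.58, 6.40, 4.50 and 4.96 TPM in PMSC-MF-7d. The 3 groups did not overlap, and 3 days was the highest. The log2 fold change was 4.04 ± 0.42 in PMSC-MF-3d against PMSC (adjusted p = 2.8e-08, edgeR), -2.14 ± 0.35 from 3 to 7 days (adjusted p = 8.2e-05) and 1.90 ± 0.42 in PMSC-MF-7d against PMSC (adjusted p = 4.3e-04). Other Kupffer markers were at or near 0 beside it. At 3 days C1qa, C1qb and C1qc had 1, 3 and 3 counts over the 4 libraries, Adgre1, Cd163 and Marco had none, and Clec4f had 6. Without Lyz2 and Csf1r the Kupffer panel summed to 0.18 to 1.04 TPM at 3 days and 0.05 to 2.40 TPM at 7 days.

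Between 3 and 7 days 5 of the 40 genes were called, 1 higher and 4 lower, against 18.6% and 17.4% of all tested genes. Lyz2 rose from 0.75, 3.45, 3.45 and 1.61 TPM to 9.08, 10.6, 10.4 and 12.4 TPM, with a log2 fold change of 2.10 ± 0.41 (adjusted p = 5.4e-04, edgeR), still under its fresh level of 29.6 TPM or more. Tek fell from 2.11 to 3.51 TPM to 0.67 to 0.81 TPM, with a log2 fold change of -2.08 ± 0.34 (adjusted p = 9.7e-05). Egfl7 had a log2 fold change of -1.20 ± 0.37 (adjusted p = 0.015), and was not called without PMSC-MF-3d 3 (-1.06, adjusted p = 0.055). Cdh5 had 48 counts over the 3-day libraries and 1 count at 7 days, a ratio of 48.4 with a 95% counting interval from 8.69 to 1912. Its adjusted p of 0.045 rose above 0.05 without any 1 of the 8 libraries, to between 0.058 and 0.13. Csf1r was the fifth. Traces of the other genes were uneven, and PMSC-MF-7d 2 was the highest library for 11 of 15 detected hepatocyte genes and 8 of 11 detected Kupffer genes, with 32 counts of Alb, 7 of Clec4f and 4 of each C1q chain.

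**Figure D5:**
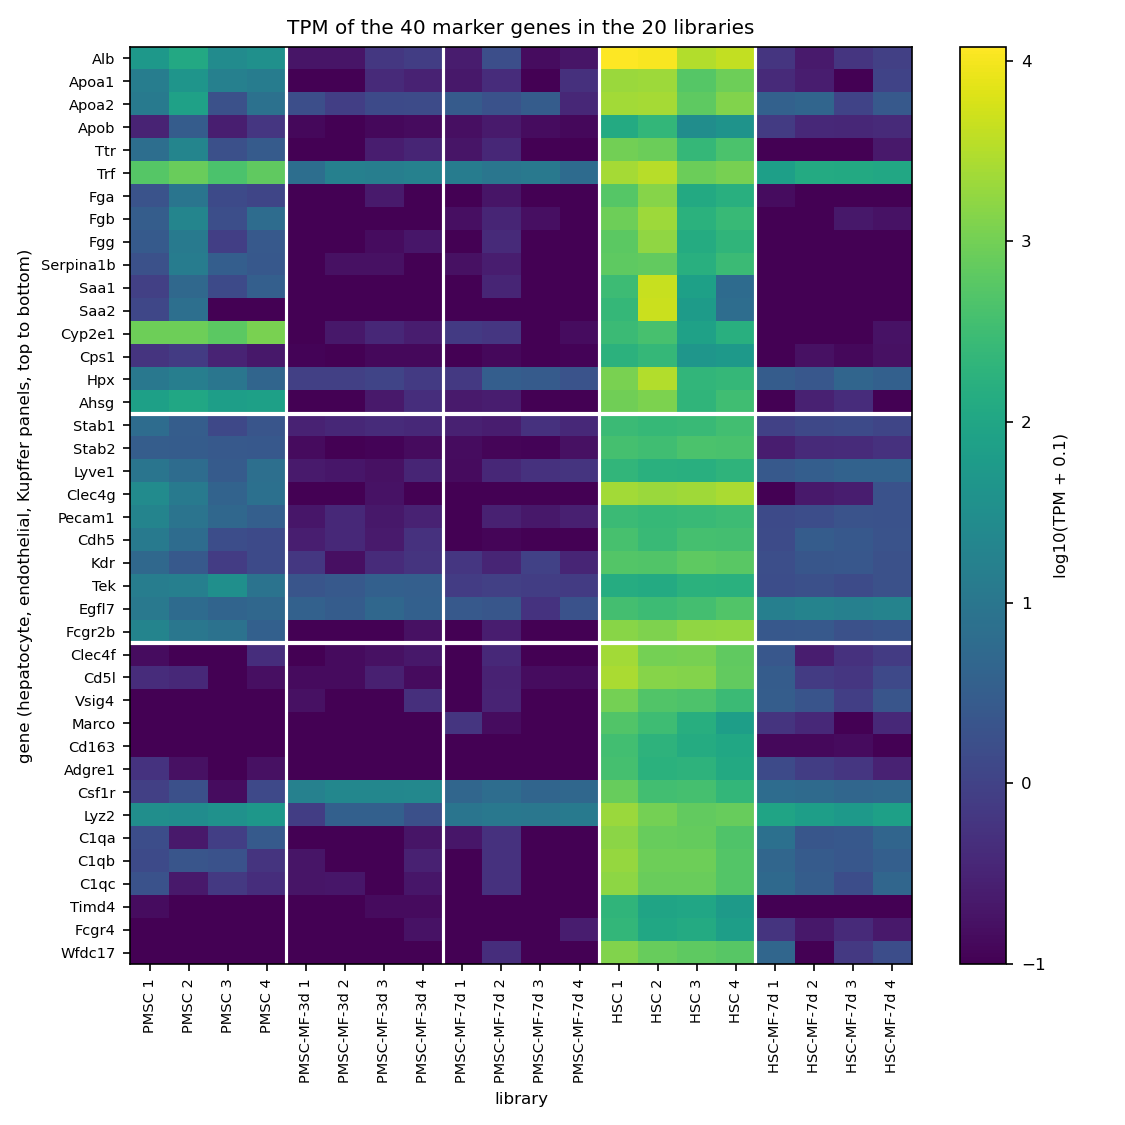
Level of the 40 genes (rows, by panel) in the 20 libraries (columns, by group) as log10 of TPM with 0.1 added. The HSC block is bright in all rows, Cyp2e1, Trf and Ahsg are bright in PMSC, and Csf1r, Trf and Lyz2 stand out among the cultured libraries.

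Cultured stellate cells held more endothelial and Kupffer transcript than cultured portal cells, with 27 to 34.8 TPM against 3.04 to 4.05 TPM and 66.9 to 129 TPM against 14.3 to 19.4 TPM. Their time in culture may differ, as said above. In HSC-MF-7d against PMSC-MF-7d 18 of 40 genes were called higher, against 23.1% of all tested genes, and 22 were not called. The endothelial panel had 9 of 10 higher, all but Clec4g, which had 17 counts against 0. Stab2 stood at 0.15, 0.30, 0.33 and 0.42 TPM in HSC-MF-7d and 0.01 to 0.07 TPM in PMSC-MF-7d, a log2 fold change of 2.81 ± 0.42 (adjusted p = 2.0e-05, edgeR). Egfl7 differed by 3.31 ± 0.33 (adjusted p = 1.2e-07), and Tek by 1.08 ± 0.37 (adjusted p = 0.023). The Tek call was lost without PMSC-MF-7d 1 or HSC-MF-7d 2 or 4, with adjusted p from 0.056 to 0.068. The Kupffer panel had 8 of 14 higher, among them C1qb, at 4.54, 2.77, 2.25 and 3.35 TPM against 0, 0.43, 0 and 0 TPM, and Lyz2, which differed by 2.76 ± 0.33 (adjusted p = 1.2e-06). The Clec4f difference, 3.59 ± 1.12 (adjusted p = 0.012), was not called without HSC-MF-7d 1 (2.49, adjusted p = 0.13), and without PMSC-MF-7d 2 it was 7.13 (adjusted p = 0.01). Csf1r did not separate the groups, at 4.66 to 6.22 TPM and 4.50 to 6.40 TPM, with a log2 fold change of 0.06 ± 0.36 (adjusted p = 0.91).

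Among hepatocyte genes Trf was the one called between the cultured groups. It was 3.41 ± 0.41 higher on the log2 scale in HSC-MF-7d (adjusted p = 1.1e-06, edgeR), where the lowest library at 73.1 TPM lay above the highest PMSC-MF-7d library at 13.3 TPM. The culture change itself, HSC-MF-7d against HSC minus PMSC-MF-7d against PMSC, was tested for each gene. It was called more negative in stellate cells for 16 of the 40 genes and less negative for 1, against 31.4% and 29.2% of all tested genes. That count depended on the method: 30 were more negative and 1 less in DESeq2, 26 and 1 with the replicate block and 38 and 2 with limma on log2(TPM + 1). Of the 16, Clec4f, Cd5l, Vsig4, Marco and Fcgr4 passed the filter only through the HSC libraries and were at or near 0 in PMSC, which left them no room to fall in portal cells. Among the 29 genes that passed without those libraries 11 were more negative and 1 less. The 1 was Trf, with a difference of 2.13 ± 0.53 (adjusted p = 0.0017). Stab2 differed by -3.96 ± 0.66 (adjusted p = 3.4e-05) and Hpx by -5.96 ± 1.15 (adjusted p = 1.7e-04). Such a difference equals the log2 gap of HSC-MF-7d over PMSC-MF-7d minus that of HSC over PMSC. These gaps were 2.81 ± 0.42 and 6.77 ± 0.22 for Stab2, and 0.59 ± 0.91 and 6.55 ± 0.74 for Hpx. The test of the difference cannot tell a different response to culture from a different fresh level. Without HSC 1 and HSC 2 the difference was 3.17 for Trf and -3.55 for Hpx, which was at -4.83 without HSC 2 alone. The calls of Alb, Cd5l, Clec4f and Vsig4 were lost without PMSC-MF-7d 2, with adjusted p of 0.18, 0.15, 1.0 and 1.0. That of Marco was lost without PMSC-MF-7d 1 (adjusted p = 0.36) and that of Fcgr4 without PMSC-MF-7d 4 (adjusted p = 1.0). The adjusted p of Apob and Vsig4, 0.04 and 0.042, also rose above 0.05 without several other single libraries. Pecam1 was not called, at -0.83 ± 1.07 (adjusted p = 0.53), or -1.53 without PMSC 1 (adjusted p = 0.075), and nor was Lyve1, at -1.09 ± 0.56 (adjusted p = 0.10). Csf1r fell in stellate cells and rose in portal cells, a difference of -8.35 ± 0.56 (adjusted p = 2.8e-10).

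Wider lists of genes of the same and of other cell types were counted in HSC against PMSC. Over all tested genes 40.1% were called higher. Genes that passed the filter only through the HSC libraries had to be higher if tested, and these were 13 of 24 further hepatocyte genes, 1 of 12 sinusoidal genes, 7 of 17 macrophage genes and 1 of 18 vascular genes. Of the 24 further hepatocyte genes 24 were higher, with a median log2 fold change of 5.88 against 0.10 over all tested genes. Among them were the fatty acid binding protein Fabp1 at 5.63 ± 0.80 and the major urinary protein Mup3 at 5.89 ± 0.60. Of the 12 further sinusoidal genes 12 were higher, with a median of 6.57, among them the mannose receptor Mrc1 at 7.59 ± 0.44. Of the 17 further macrophage genes 17 were higher, 10 of 10 among those that passed without the HSC libraries, among them the protease gene Ctss at 9.76 ± 0.55. General vascular genes were mixed: 14 of 18 were higher, such as Plvap, a protein of endothelial fenestrae, at 6.51 ± 0.37. Vwf, the von Willebrand factor of large-vessel endothelium, was not called, at -1.35 ± 0.68 (adjusted p = 0.082, edgeR). The adhesion molecules Selp at -2.41 ± 0.52 and Sele at -2.93 ± 0.30, and Ly6c1 at -4.84 ± 0.95, were lower in HSC.

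Markers of other blood and epithelial cells were scarce. Of 10 granulocyte, monocyte and dendritic cell genes 4 passed the filter, 3 of them only through the HSC libraries, and all 10 summed to 8.68 to 22.4 TPM in HSC and 0.27 to 0.92 TPM in PMSC. The 3 that passed only through the HSC libraries, Ly6c2, Ccr2 and Siglech, were called higher in HSC, a direction fixed by the filter. The 1 that passed without those libraries was not called. Over all tested genes 40.1% were called higher. Of 9 lymphocyte genes 1 passed the filter, the B cell gene Cd79a, which was lower in HSC, at 0, 0, 0.33 and 0 TPM against 3.47 to 6.93 TPM. The list summed to 1.04 to 8.81 TPM in HSC and 3.47 to 6.93 TPM in PMSC. Of 8 cholangiocyte genes 5 passed, 2 of them only through the HSC libraries. Sox9 was called lower in HSC, 1 gene was called higher and 3 were not called. The 1 called higher passed only through the HSC libraries. Over all tested genes 33.6% were called lower. The list's sum was 4.44 to 19.1 TPM in HSC and 27.1 to 39.9 TPM in PMSC.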

How the data were processed

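Total RNA of 20 libraries in 5 groups of 4 was extracted with an RNeasy Micro kit and made into stranded mRNA libraries, per the labels' protocols. FastQC, Trimmomatic, STAR 2.5.3a, RSEM 1.2.28 and the build mm10 are named in the submitters' processing notes. For each of 24848 genes the authors deposited an expected count, estimated by RSEM, a TPM and an FPKM value, per the file headers. Deposited FPKM values entered no test. Levels are deposited TPM, which depend on all other transcripts of the library. The members and lists were chosen with earlier results of these data known. Members were matched by symbol.

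The test, edgeR 4.0.16 in R 4.3.3, was run on the rounded expected counts, with filterByExpr, which left 14751 genes, TMM scaling and a robust quasi-likelihood fit of 5 group means over all 20 libraries. P-values were adjusted over all 14751 genes by Benjamini-Hochberg, and a gene was called under 0.05. Log2 fold changes are given with ± SE, taken as the size of the change divided by the square root of the quasi-likelihood F. Where a group had no counts, a floor of 3 counts over its 4 libraries gave a lower bound on the fold. Ratios on 1 to 3 counts carry a 95% interval for counting error only. All 40 members passed the filter, 29 of them also without the HSC libraries. Alternatives were DESeq2 1.42.0, library totals, no filter, a replicate block, a fit of the compared groups alone, limma 3.58.1 on log2(TPM + 1), TMM without the marker genes, and leaving out libraries. Leaving out HSC 1 and HSC 2 together was chosen after seeing the data. The test was also run on simulated data with the same spread for every gene. That setting is simpler than these libraries, so it gives no error rate for them. Any of the 40 members could be named. Values per library were given for the 6 highest members of each panel in HSC, for members highest outside HSC, for members expressed in a cultured group and for members with no count in a fresh group. Promoters were taken from RefSeq (GRCm38.p6) and gene positions from GENCODE M21. The result of 1 gene among the markers of other cell types is not reported here.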

Additional observations from a re-analysis of the deposited data

Results flagged for a closer look

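In 121 groups of 4 libraries with more than 40 counts, the gap between the most extreme library and its nearest neighbour was compared with the whole range of the group. In 11 the ratio was above Dixon's 95% critical value, which chance gives in about 1 in 20 groups. PMSC 2 accounted for 6 of them, all as the highest PMSC library in a hepatocyte gene: Apoa1 at 43.8 TPM (group median 15.0), Apoa2 at 79.32 (10.0), Apob at 2.89 (0.38), Fga at 9.21 (1.56), Fgg at 11.76 (2.55) and Serpina1b at 13.34 (2.77). HSC 2 stood apart at 4495.06 TPM of Saa1 and 4651.42 TPM of Saa2, against medians of 191 and 151. HSC-MF-7d 1 held 0.66 TPM of Apob (median 0.3). As panel sums, PMSC-MF-7d 4 was low in hepatocyte genes at 8.68 TPM (median 17.5), and PMSC-MF-3d 1 was low in Kupffer genes at 17.8 TPM (median 25.6).

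The change with culture differed between stellate and portal cells for 17 of the 40 genes by the test of the difference in edgeR. It was more negative in stellate cells for 16 and less negative for 1, against 31.4% and 29.2% of all tested genes. Among the 16, Clec4f, Cd5l, Vsig4, Marco and Fcgr4 passed the filter only through the HSC libraries and were at or near 0 in PMSC. The test cannot tell a different response to culture from a different fresh level. Csf1r was among the 17, with changes of opposite direction and a difference of -8.35 on the log2 scale.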

How the results depend on the processing

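The count of called genes among the 40 was within 1.5 times its main value in 112 of 116 recomputed cases, and that over all genes in 116 of 116. The exceptions were the difference of the culture changes, with 17 genes called, 31 in DESeq2, 27 with the replicate block and 40 with limma on log2(TPM + 1), and the change from 3 to 7 days in portal cells. That count was 5, and 3 to 4 when 1 library was left out, with 3 without PMSC-MF-3d 3. Of the values for single genes, 4398 kept direction and side of the threshold, 66 gained a call, 89 lost one and 2 reversed. Those 2 were the culture differences, in limma, of Cyp2e1, at 1.84 (-1.03 in edgeR, adjusted p = 0.70), and of Cdh5, at -4.60 (2.13 in edgeR, adjusted p = 0.41). The cause was not tested.

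Deviations from the group means were weakly correlated between libraries of the same replicate number. Of 40 such pairs 2 were above 0.1, and values ran from -0.0518 to 0.145, the highest for PMSC 2 with HSC 2. Pairs of unlike number were not compared, so whether the numbers pair the libraries was not tested. With the replicate block the genes called were 40 in HSC against PMSC, 31 in PMSC-MF-3d against PMSC and 4 between 3 and 7 days. They were 31 in PMSC-MF-7d against PMSC, 40 in HSC-MF-7d against HSC and 21 between the cultured groups. Of all tested genes, the main fit called 40.1% higher and 33.6% lower in HSC against PMSC. It called 37.2% and 41.1% in PMSC-MF-3d against PMSC, and 18.6% and 17.4% between 3 and 7 days. Shares were 38.1% and 39.0% in PMSC-MF-7d against PMSC, 38.5% lower in HSC-MF-7d against HSC and 23.1% higher between the cultured groups.

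In CPM, which ignores gene length, the median endothelial sum was 108 for PMSC (68.3 in TPM), 11.6 for PMSC-MF-3d (7.82), 4.88 for PMSC-MF-7d (3.9) and 7585.3 for HSC (6534). The median Kupffer sum was 17.3 for PMSC (39.1 in TPM), 42.7 for PMSC-MF-3d (25.6), 12.8 for PMSC-MF-7d (16.2) and 44.7 for HSC-MF-7d (93.8). The order of PMSC and PMSC-MF-3d in the Kupffer sum thus turned with the unit.

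Scaling by library totals moved the share of higher calls over all genes from 54.4% to 66.7% in HSC against PMSC, from 47.5% to 61.7% over the first 3 days of portal cell culture, from 49.4% to 63.5% over 7 days and from 48.2% to 34% in the culture difference. With limma these shares were 68.4%, 60%, 65.2% and 32%, and that from 3 to 7 days moved from 51.7% to 64.4%. Totals moved the median of all genes from 0.10 to 0.44 in HSC against PMSC. Traces in cultured libraries rest on few counts, so genes at 0 there were not detectable at this depth.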
